A study of Mus musculus with 16 samples.

Results

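The heat shock chaperones described here are 10 genes listed by name: Hspa1a, Hspa1b, Hspa8, Hsph1, Bag3, Dnajb1, Hsp90aa1, Hsp90ab1, Hspd1 and Hspe1. They are 10 of 47643 gene identifiers in the deposited count tables, and all 10 passed the filter on low counts in every model fit. The study, as its title puts it, concerned the use of cultured alveolar macrophages, the resident phagocytes of the lung's air spaces, as a model of tissue macrophages. RNA was counted by QuantSeq, which reads the 3' end of each polyadenylated transcript, in 16 libraries from wild type C57BL/6 mice.

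Mice 1, 2 and 4 each gave 4 libraries, so each of these groups holds 3. BALF libraries hold the cells of bronchoalveolar lavage, PLF libraries hold the cells of peritoneal lavage, and both were taken fresh. BMDM were derived from bone marrow by culture, and mexAM are alveolar macrophages cultured ex vivo. A further 4 libraries came from 2 cultures of pooled lavage. Pool 1 was sampled at passage 8 and again at passage 13, and pool 2 at passage 5 and again at passage 10. The labels name no treatment and no altered allele in any group. Not given in the sources used here are age, sex, culture medium, time between lavage and lysis, and the number of mice in a pool. The labels name no sorting of the fresh cells. These are bulk values, in which fewer cells of a type and less RNA per cell cannot be told apart. BMDM and PLF differ in origin as well as in culture, so in that pair the effect of culture and that of cell type cannot be told apart.

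Cells answer heat and protein damage by transcribing chaperone genes. Heat shock factor 1, held inactive by chaperones in an unstressed cell, is freed when these are taken up by misfolded proteins, forms trimers and binds heat shock elements, which are inverted repeats of the letters GAA. HSP70 proteins hold unfolded stretches of protein in a cycle that J domain proteins start and nucleotide exchange factors end, HSP90 proteins act on clients later in folding, and the HSP60 and HSP10 chaperonin folds proteins inside mitochondria. Hspa1a, Hspa1b and Hsp90aa1 are the inducible forms, and Hspa8 and Hsp90ab1 are the forms made by unstressed cells.

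Promoter sequence was looked up for the members because they are textbook targets of a shared factor, and 7 of the 10 matched a window of 250 bases before to 50 after a transcript start in RefSeq (GRCm38.p6). Hspa8, Hsp90aa1 and Hsp90ab1 were not matched. The element was searched on both strands in a strict form of 3 units, GAA, TTC and GAA or TTC, GAA and TTC, and in a looser form of 2 units, GAA and TTC or TTC and GAA, always with 2 bases of any kind between units. Every strict match also contains the looser form. Hspa1a and Hspa1b are shown because their windows are nearly the same and their 75 bases here are identical; capitals mark the 2-unit element and the CCAAT box, read as ATTGG on the other strand. They lie at chr17:34972207-34972281 and chr17:34959289-34959363, both on the minus strand.
Hspa1a: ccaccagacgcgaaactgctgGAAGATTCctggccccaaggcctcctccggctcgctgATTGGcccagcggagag
Hspa1b: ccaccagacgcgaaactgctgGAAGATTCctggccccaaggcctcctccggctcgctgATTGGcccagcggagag

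Hspe1 and Hspd1 stand head to head on chromosome 1, and the same 40 bases, chr1:55088048-55088087, are shown on the plus strand for Hspe1 and on the minus strand for Hspd1. Capitals mark an element of 18 bases that holds the strict form and lies in the windows of both genes.
Hspe1: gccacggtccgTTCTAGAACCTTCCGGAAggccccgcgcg
Hspd1: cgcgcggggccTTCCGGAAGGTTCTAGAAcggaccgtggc

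Hsph1 is shown because its window holds both forms on the minus strand. Capitals mark a 2-unit element before the start, at chr5:149636352-149636391, and a 3-unit element after it, at chr5:149636287-149636310.
Hsph1 before the start: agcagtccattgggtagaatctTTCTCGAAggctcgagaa
Hsph1 after the start: atgctgcagaTTCTGGAAAGTTCt

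The strict form was found in 3 of the 7 matched genes (Hsph1, Hspd1 and Hspe1) and in 0.603% of 32851 windows of the same length. The looser form was found in 6 of 7, the exception being Dnajb1, and in 15.1% of all windows. CCAAT was found in 5 of 7 (Hspa1a, Hspa1b, Hsph1, Dnajb1 and Hspd1) and in 37.4% of all windows. These are matches of letters within short windows.

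Libraries held 827791 to 2884679 counts in genes, so that 1 count was worth 0.347 to 1.21 CPM, the count scaled to a common library total. Reads outside genes made up 10.6 to 29.9%, mitochondrial genes took 8.94 to 16.4% of counts, and the ribosomal RNA locus Gm42418 took 3.81 to 13.6%. The 12 alveolar macrophage markers summed to 13214 to 18660 CPM in BALF and 11175 to 13200 in mexAM, against 302 to 605 in BMDM and PLF. The BALF and mexAM sums differed in make-up. Chil3 stood at 9575 CPM in BALF and 2584 in mexAM, and Itgax at 545 and 56.0. Fabp1 stood at 293 CPM in BALF and 2161 in mexAM, and Marco at 384 and 688. Markers of other cells were counted in the fresh libraries: the 10 B cell markers summed to 2239 to 2694 CPM in PLF, 113 ± 12.5 (SD, n = 3) in BMDM and at most 5.53 in BALF, the 10 eosinophil and mast cell markers to 1832 to 2046 in PLF and at most 7.18 in BALF, and the 6 erythroid markers to 40.1, 502 and 736 in BALF of mice 1, 2 and 4. Gm42418 varied within groups: it took 13.3% of counts in PLF of mouse 1 against 4.08 and 3.81% in mice 2 and 4, 4.27% in BALF of mouse 2 against 11 and 13.6% in mice 1 and 4, and 5.95% in BMDM of mouse 1 against 12 and 12.5% in mice 2 and 4. Levels below are CPM on totals scaled by trimmed means (TMM), each as mean ± SD over the libraries of a group. A gene is called where its adjusted p (edgeR's quasi-likelihood test, Benjamini-Hochberg over all genes tested) is under 0.05, and a fold change is a log2 value ± SE from that fit.

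Most of the chaperone genes were lower in culture than in fresh lavage, and the inducible HSP70 genes had the largest fold changes among them. When mexAM and BMDM were set against BALF and PLF, 8 of the 10 genes were called lower and none higher, where 20.0% of 10011 genes were called lower. The 2 members not called were Hspa8, the constitutive HSP70, and Hspe1, the mitochondrial HSP10. The median log2 fold change of the 10 was -0.94, and that of all genes was 0.01. For 3 members (Hspa1a, Hspa1b and Bag3) all 6 cultured libraries lay below all 6 fresh ones, which held for 3.83% of genes.

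**Figure D1:**
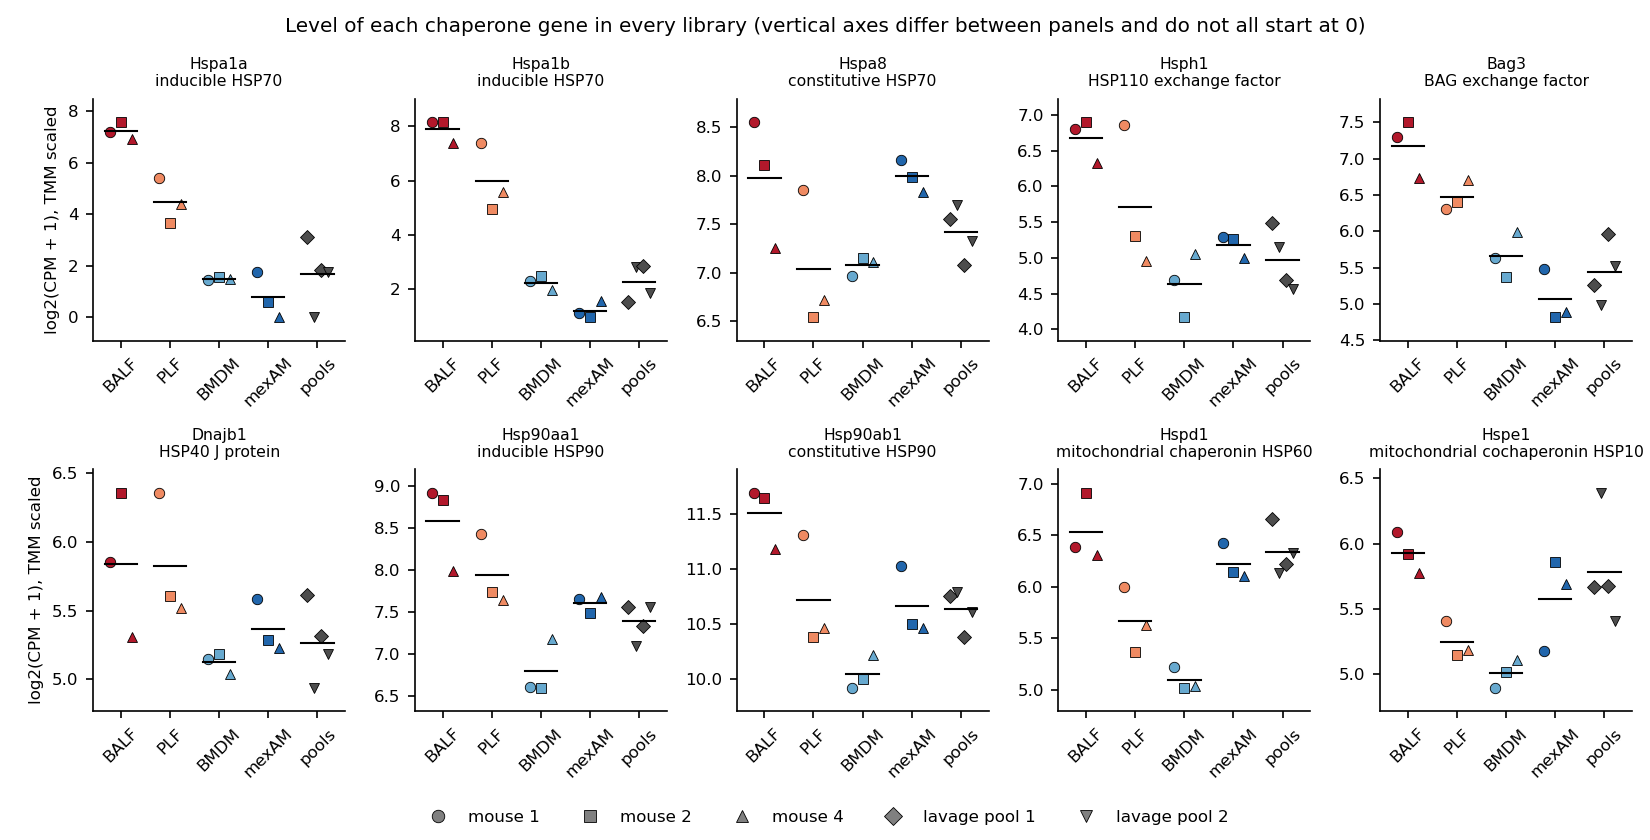
Level of each of the 10 genes in all 16 libraries as log2(CPM + 1), by group; symbols give the mouse or lavage pool and bars the group means of the plotted values. Hspa1a and Hspa1b fall from 121 to 282 CPM in BALF to at most 2.34 CPM in mexAM. For Hspa8, mexAM overlaps BALF and BMDM overlaps PLF, while BMDM lies below both BALF and mexAM.

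Hspa1a (ENSMUSG00000091971, chr17:34969190-34972156, minus strand) and Hspa1b (ENSMUSG00000090877, chr17:34956436-34959238, minus strand) encode the stress-inducible cytosolic HSP70. In BALF of mice 1, 2 and 4 Hspa1a stood at 145, 190.3 and 121 CPM, and in PLF at 42.1, 11.5 and 20.1 CPM. In culture it stood at 1.75, 1.96 and 1.77 CPM in BMDM, at 2.34, 0.487 and 0 CPM in mexAM, and at 7.66, 2.54, 0 and 2.34 CPM in the pools (pool 1 at passage 8 and later at 13, then pool 2 at passage 5 and later at 10). Every fresh library was above every cultured one, and BALF did not overlap PLF. The mexAM values rest on 4, 1 and 0 counts and the BMDM values on 4, 3 and 3, so differences among the cultures were not detectable at this depth.

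The levels of Hspa1a were 152 ± 35.2 CPM in BALF and 24.6 ± 15.8 CPM in PLF, and fell to 0.943 ± 1.24 CPM in mexAM and 1.83 ± 0.121 CPM in BMDM (SD, n = 3 each). The log2 fold change was -7.43 ± 0.57 for mexAM against BALF (edgeR adjusted p = 1.8e-07) and -3.71 ± 0.58 for BMDM against PLF (edgeR adjusted p = 0.00011), and each mouse had the same direction in both. By summed counts, 513 in BALF against 5 in mexAM, the ratio of levels was 188, with a 95% exact interval of 79.9 to 581 that covers counting error only. For PLF against BMDM, 111 against 10 counts, it was 13.9 (7.28 to 29.8).

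In BALF Hspa1b stood at 282, 282 and 165 CPM, in PLF at 166, 30.4 and 46.6 CPM. In culture it stood at 3.93, 4.58 and 2.94 CPM in BMDM, at 1.17, 0.973 and 1.96 CPM in mexAM, and at 1.92, 6.35, 6.18 and 2.67 CPM in the pools. All fresh libraries were again above all cultured ones, but PLF of mouse 1 reached the lowest BALF library. The log2 fold change was -7.34 ± 0.70 for mexAM against BALF (edgeR adjusted p = 5.8e-06) and -4.37 ± 0.63 for BMDM against PLF (edgeR adjusted p = 0.00011). The ratio of levels was 171 (89.7 to 376; 842 against 9 counts) in the first and 21.7 (14 to 35.5; 364 against 21 counts) in the second.

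These paralogs are hard to tell apart over most of their length. Their coding sequences matched at 1915 of 1923 aligned bases (99.6%), but the stretch after the coding sequence matched at 417 of 581 aligned bases (71.8%). In the last 400 bases of each transcript, where these libraries read, 0 of the 336 words of 65 bases, the length of a read, of Hspa1a or of Hspa1b occurred in another gene of the annotation. With the counts of both genes added and fitted as 1 row, the log2 fold change was -7.42 ± 0.63 for mexAM against BALF and -4.20 ± 0.56 for BMDM against PLF, both called. In the order of group means, BALF was above PLF and PLF above every culture for both genes, each of these steps called; the pools, BMDM and mexAM followed in that order, with no neighbours called different.

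Hspa8 (ENSMUSG00000015656, chr9:40800984-40810087, plus strand) encodes the HSP70 that unstressed cells make. Its level was 374, 276 and 152 CPM in BALF, 231, 92.1 and 104 CPM in PLF, 124, 141 and 137 CPM in BMDM, 285, 253 and 227 CPM in mexAM, and 187, 135, 206 and 159 CPM in the pools. The mexAM libraries lay within the range of BALF, and BMDM within that of PLF. The log2 fold change was -0.07 ± 0.32 for mexAM against BALF (edgeR adjusted p = 0.90) and -0.08 ± 0.33 for BMDM against PLF (edgeR adjusted p = 0.88), and in both its sign depended on the setting. No neighbours in the order BALF, mexAM, pools, PLF, BMDM were called different. Of the 336 words at its 3' end, 277 (82.4%) also occur in 11 other genes of the annotation, so its counts depend on how the authors treated reads with several matches.

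**Figure D2:**
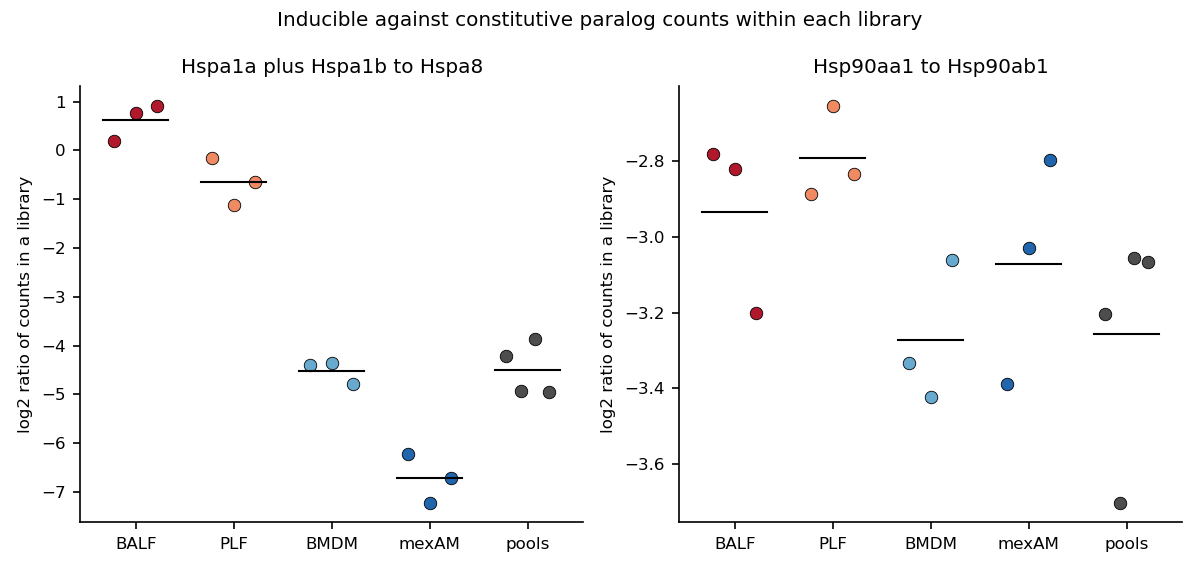
Ratio of counts within each library, as log2 with 0.5 added to each count: inducible HSP70 (Hspa1a plus Hspa1b) to Hspa8 on the left, Hsp90aa1 to Hsp90ab1 on the right. Points are libraries and bars group means. On the left fresh libraries lie from -1.13 to 0.91 and mexAM from -7.22 to -6.23. On the right mexAM overlaps BALF, while BMDM (-3.42 to -3.06) lies below PLF (-2.89 to -2.65).

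The balance of inducible to constitutive HSP70 differed between fresh and cultured libraries, and this ratio within a library does not depend on scaling. The log2 ratio of Hspa1a plus Hspa1b to Hspa8 was -0.0061 ± 0.80 in fresh and -5.62 ± 1.26 in cultured libraries (SD, n = 6 each). The difference was -5.61 (exact two-sided permutation p = 0.0022, adjusted over 4 tests 0.0087), and all 6 cultured libraries were below all 6 fresh ones. These permutations treated libraries as independent, though each mouse gave libraries on both sides and each side mixes cell origins. The p is the lowest that 6 against 6 libraries can give and takes no account of the pairing by mouse. For mexAM against BALF the difference was -7.35, where 3 against 3 libraries cannot give an exact permutation p below 0.10. The log2 ratio of Hsp90aa1 to Hsp90ab1 differed by -0.31 between cultured and fresh (exact permutation p = 0.039, adjusted 0.078), which did not pass.

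Next come the genes that serve HSP70. Bag3 (ENSMUSG00000030847, chr7:128523616-128546981, plus strand) encodes an exchange factor that hands HSP70 clients to autophagy, and it fell in both culture contrasts. Its level was 157, 180.2 and 105 CPM in BALF and 78.2, 83.9 and 103 CPM in PLF. In culture it was 48.5, 40.6 and 62.4 CPM in BMDM, 43.9, 27.3 and 28.7 CPM in mexAM, and 37.4, 61.6, 30.9 and 45.1 CPM in the pools. Every fresh library was above every cultured one. The log2 fold change was -2.15 ± 0.26 for mexAM against BALF (edgeR adjusted p = 8.1e-06) and -0.80 ± 0.25 for BMDM against PLF (edgeR adjusted p = 0.017). BALF was above PLF and PLF above BMDM, both steps called, and the pools and mexAM followed with no neighbours called different. The second call was lost without BMDM of mouse 1 (adjusted p = 0.058), BMDM of mouse 2 (0.084) or PLF of mouse 4 (0.079).

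Hsph1 (ENSMUSG00000029657, chr5:149614287-149636376, minus strand) encodes HSP110, an HSP70 relative that acts as its exchange factor. In BALF it stood at 111, 118 and 79.0 CPM, in PLF at 115, 38.6 and 30.1 CPM, against 24.9, 17.0 and 32.4 CPM in BMDM and 38.1, 37.5 and 31.0 CPM in mexAM. The pools stood at 44.1, 24.8, 34.6 and 22.7 CPM. PLF of mouse 1 was at the level of BALF, while PLF of mouse 4 was below the highest BMDM library. In the edgeR fit the log2 fold change was -1.53 ± 0.39 for mexAM against BALF (edgeR adjusted p = 0.0092) and -1.29 ± 0.41 for BMDM against PLF (edgeR adjusted p = 0.023). Without PLF of mouse 1 the second was -0.46 (adjusted p = 0.23), and the call was also lost without BMDM of mouse 1 (0.063) or mouse 2 (0.087). In the order BALF, PLF, mexAM, pools, BMDM no neighbours were called different.

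Dnajb1 (ENSMUSG00000005483, chr8:83608193-83612653, plus strand) encodes the main stress-inducible J domain protein of the cytosol. It stood at 56.7, 81.1 and 38.6 CPM in BALF, 80.9, 47.7 and 44.9 CPM in PLF, 34.5, 35.4 and 31.8 CPM in BMDM and 46.9, 38.0 and 36.5 CPM in mexAM. The pools stood at 47.9, 38.7, 29.6 and 35.4 CPM. BMDM lay below PLF in all libraries, while mexAM overlapped BALF. As a log2 fold change this was -0.76 ± 0.27 for BMDM against PLF (edgeR adjusted p = 0.036) and -0.53 ± 0.27 for mexAM against BALF (edgeR adjusted p = 0.15, not called). The BMDM call was lost without any BMDM library (0.076 to 0.096) and without PLF of mouse 1 (-0.45, adjusted p = 0.21). The order of group means was that of Hsph1, again with no neighbours called different.

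Both cytosolic HSP90 genes were called lower in both culture contrasts. Hsp90aa1 (ENSMUSG00000021270, chr12:110690605-110702728, minus strand), the inducible form, stood at 482, 454 and 253 CPM in BALF, 343, 212 and 198 CPM in PLF, 96.1, 95.6 and 143 CPM in BMDM and 199.7, 178 and 204 CPM in mexAM. The pools stood at 188, 160.1, 136 and 187 CPM. All mexAM libraries lay below all BALF libraries, and all BMDM libraries below all PLF libraries. On the log2 scale the change was -1.03 ± 0.26 for mexAM against BALF (edgeR adjusted p = 0.0064) and -1.16 ± 0.26 for BMDM against PLF (edgeR adjusted p = 0.0022).

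Hsp90ab1 (ENSMUSG00000023944, chr17:45567775-45573271, minus strand), the constitutive form, stood at 3317, 3207 and 2329 CPM in BALF, 2539, 1337 and 1417 CPM in PLF, 970.0, 1028 and 1194 CPM in BMDM and 2092, 1453 and 1416 CPM in mexAM. The pools stood at 1732, 1333, 1775 and 1564 CPM. Here too mexAM lay below BALF, and BMDM below PLF, without overlap. The fitted log2 fold change was -0.84 ± 0.26 for mexAM against BALF (edgeR adjusted p = 0.021) and -0.72 ± 0.26 for BMDM against PLF (edgeR adjusted p = 0.036). Leaving out BALF of mouse 1 or 2, or mexAM of mouse 2 or 4, ended the first call (adjusted p 0.062 to 0.083), as did library totals in place of TMM (-0.63, adjusted p = 0.058). The second was lost without BMDM of mouse 1 (0.11) or mouse 2 (0.10), and without PLF of mouse 1 it was -0.37 (0.22). For both HSP90 genes the step from BALF to PLF was called, and among PLF, mexAM, pools and BMDM, in that order, no neighbours were. Of the 336 words of Hsp90ab1, 20 (5.95%) occur in 1 other gene.

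The genes of the mitochondrial chaperonin were called in neither culture contrast in the edgeR fit, though Hspd1 was at the threshold in BMDM against PLF. Hspd1 (ENSMUSG00000025980, chr1:55077835-55088243, minus strand), which encodes HSP60, stood at 82.3, 119 and 78.1 CPM in BALF, 62.9, 40.3 and 48.4 CPM in PLF, 36.2, 31.4 and 31.8 CPM in BMDM, 84.9, 69.6 and 68.0 CPM in mexAM and 99.6, 73.7, 69.2 and 79.5 CPM in the pools. The lung-derived groups came first and the step from mexAM to PLF was called (edgeR adjusted p = 0.036). In the edgeR fit the log2 fold change was -0.32 ± 0.21 for mexAM against BALF (edgeR adjusted p = 0.28) and -0.60 ± 0.23 for BMDM against PLF (edgeR adjusted p = 0.050, just over the threshold before rounding), neither called. DESeq2 called the second (-0.63, adjusted p = 0.048). So did edgeR with relative log expression scaling (0.042), with Gm42418 and mitochondrial genes left out, with the HSP70 paralogs summed, with only the compared groups, and without BALF of mouse 2 or 4, mexAM of mouse 1 or PLF of mouse 2 (-0.73, adjusted p = 0.032, for the last). Over both contrasts it was -0.46 ± 0.16 (adjusted p = 0.027), and that call was lost in 6 of 12 fits that left out 1 library: BALF of mouse 2, BMDM of mouse 2 or 4, mexAM of mouse 2 or 4, or PLF of mouse 1 (-0.44 to -0.36, adjusted p 0.052 to 0.083). It was also lost with library totals (adjusted p = 0.097) and with no filter on low counts (0.053).

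Hspe1 (ENSMUSG00000073676, chr1:55088132-55091307, plus strand) encodes HSP10, the lid of the chaperonin. It stood at 67.1, 59.7 and 53.9 CPM in BALF, 41.5, 34.5 and 35.4 CPM in PLF, 28.8, 31.4 and 33.5 CPM in BMDM, 35.1, 56.9 and 50.7 CPM in mexAM and 49.8, 50.2, 82.8 and 41.4 CPM in the pools. All BMDM libraries were below all PLF libraries, and mexAM overlapped BALF. As a log2 fold change this was -0.33 ± 0.21 for mexAM against BALF (edgeR adjusted p = 0.26) and -0.24 ± 0.22 for BMDM against PLF (edgeR adjusted p = 0.43), neither called. In the order BALF, pools, mexAM, PLF, BMDM no neighbours were called different. At its 3' end 158 of 336 words (47.0%) occur in 2 other genes. The annotated Hspd1 and Hspe1 genes overlap at their starts, away from the 3' ends that were read.

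Counted over members, 6 of 10 were called lower in mexAM than in BALF (Hspa1a, Hspa1b, Hsph1, Bag3, Hsp90aa1 and Hsp90ab1) and none higher, where 14.8% of genes were called lower. The same 6 had all mexAM libraries below all BALF libraries, against 21.4% of genes. With only the BALF library of mouse 1, the library lowest in erythroid markers, 4 were called, with the spread of that lone library assumed to be like that of the other groups, and Hsph1 (-1.64, adjusted p = 0.079) and Hsp90ab1 (-1.0, adjusted p = 0.080) were not.

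In BMDM against PLF 7 of 10 were called lower, those 6 and Dnajb1, and none higher, where 18.0% of genes were called lower. All BMDM libraries lay below all PLF libraries for 8 members, the exceptions being Hspa8 and Hsph1, against 24.2% of genes.

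**Figure D3:**
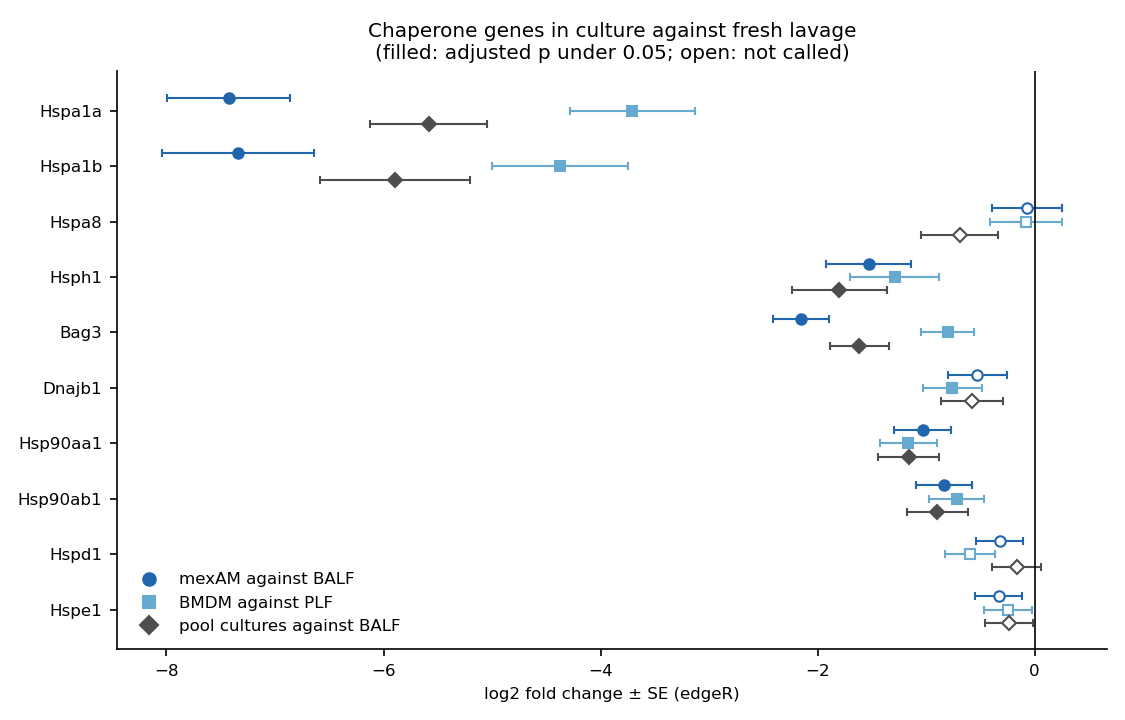
Log2 fold change ± SE of each gene in mexAM against BALF, BMDM against PLF and the pool cultures against BALF (edgeR); filled symbols have an adjusted p under 0.05. Hspa1a and Hspa1b lie between -7.43 and -3.71 and the other 8 genes between -2.15 and -0.07.

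Whether the loss in culture had the same size in both contrasts was tested as their difference, mexAM minus BALF less BMDM minus PLF. It was called for 2 members, Hspa1a at -3.72 ± 1.09 (edgeR adjusted p = 0.023) and Bag3 at -1.35 ± 0.35 (edgeR adjusted p = 0.010), where 11.6% of genes were called in that direction. Hspa1b was at -2.97 ± 1.11 (edgeR adjusted p = 0.078, not called), but it was called with mouse as a replicate block (-3.06, adjusted p = 0.021) and by DESeq2 (-3.0, adjusted p = 0.0056). With both genes summed the difference was -3.21 ± 0.92 (edgeR adjusted p = 0.024). The other 7 members had differences between -0.24 and 0.27. The call of Hspa1a was lost without any BMDM library (adjusted p 0.0501 to 0.066), and without PLF of mouse 1 Hspa1b (-4.01, adjusted p = 0.00013) and Hsph1 (-1.08, adjusted p = 0.044) were called as well.

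Fresh lavage from the lung held more of most chaperone transcripts than fresh lavage from the peritoneum. In BALF against PLF 8 of 10 members were called higher and none lower, where 19.5% of genes were called higher. The largest was Hspa1a, with a log2 fold change of 2.62 ± 0.38 (edgeR adjusted p = 4.2e-05), then Hspa1b at 1.60 ± 0.46 (0.013), Hspa8 at 0.93 ± 0.33 (0.036), Hspd1 at 0.88 ± 0.22 (0.0040), Hsp90ab1 at 0.76 ± 0.26 (0.025), Bag3 at 0.74 ± 0.24 (0.021), Hspe1 at 0.71 ± 0.22 (0.016) and Hsp90aa1 at 0.67 ± 0.26 (0.046). Hsph1 was at 0.76 ± 0.39 (adjusted p = 0.14) and Dnajb1 at 0.03 ± 0.27 (0.95), neither called. All BALF libraries were above all PLF libraries for Hspa1a, Bag3, Hspd1 and Hspe1, 4 of 10, against 24.1% of genes. With library totals in place of TMM only 3 members were called (Hspa1a, Hspa1b and Hspd1), and the fold change of all genes then had a median of -0.27. Leaving out 1 library at a time, Hspa1a and Hspd1 stayed called in all 12 fits. Hspa1b was lost without PLF of mouse 4 (1.31, adjusted p = 0.055). Hsp90aa1 was lost in 8 fits, without BALF 1 or 2, BMDM 1 or 2, mexAM 1 or 4, or PLF 2 or 4 (numbers are mice), and DESeq2 did not call it (adjusted p = 0.071). Hsp90ab1 was lost without BALF 1 or 2 or PLF 2 or 4, Hspa8 without those or mexAM 1, Hspe1 without BALF 1 or PLF 2 or 4, and Bag3 without BALF 1 or 2 or PLF 1 or 2. Without PLF of mouse 1 Hsph1 was called (1.60, adjusted p = 0.00018).

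The PLF libraries differed among themselves. PLF of mouse 1 was the highest of the 3 for Hspa1a, Hspa1b, Hspa8, Hsph1, Dnajb1, both HSP90 genes, Hspd1 and Hspe1, and the lowest for Bag3. Hspa1a plus Hspa1b summed to 208 CPM in it, against 41.9 CPM in mouse 2 and 66.7 CPM in mouse 4. Immediate early genes are transcribed within minutes of a stimulus, and their sum went the other way. The 22 listed summed to 6594 CPM in PLF of mouse 1, 11386 CPM in mouse 2 and 15869 CPM in mouse 4. Single genes of the list varied. In mice 1, 2 and 4 Jun was 296, 280 and 566 CPM and Atf3 452, 233 and 484 CPM, with mouse 1 between the others. Fos was 33.4, 53.4 and 275 CPM, lowest in mouse 1. Egr1 was 92.3, 287 and 341 CPM in these 3 libraries, Il1b, an inflammatory cytokine, was 77.6, 569 and 412 CPM, and Hmox1, the heme-degrading stress enzyme, was 3428, 1531 and 1599 CPM. The part of these differences in the chaperone values was not tested.

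**Figure D4:**
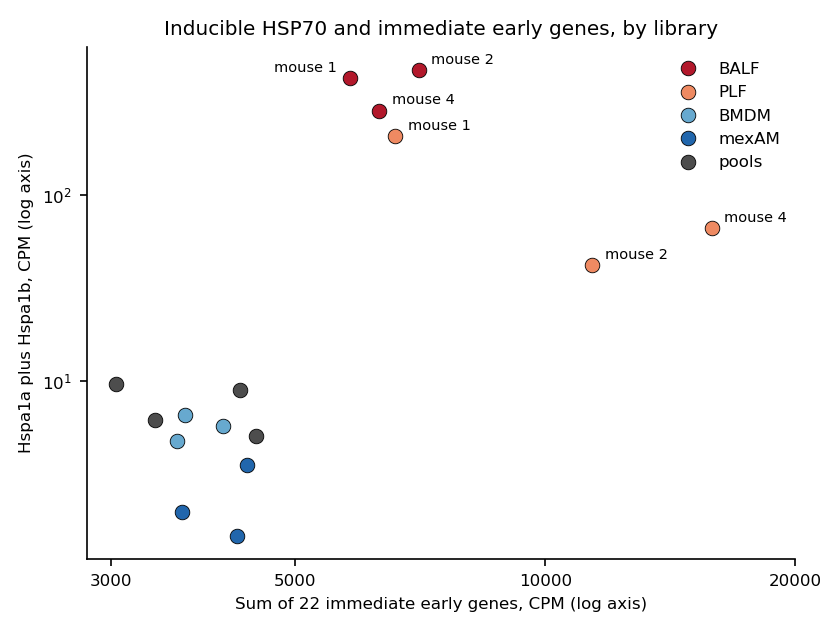
Hspa1a plus Hspa1b against the sum of 22 immediate early genes in each library, in CPM on log axes. The 10 cultured libraries sit below 10 CPM for the chaperones and at or below 4488 CPM for the immediate early genes, and PLF of mouse 1 lies nearer to BALF than to the other PLF libraries.

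BALF of mouse 4 was the lowest BALF library for all 10 members. The erythroid markers were highest there, at 736 CPM. Their part in these values was not tested.

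Against fresh lung lavage every member was lower in bone marrow macrophages. In BMDM against BALF all 10 members were called lower, where 18.2% of genes were called lower, from -0.79 ± 0.28 for Dnajb1 (edgeR adjusted p = 0.033) and -1.01 ± 0.33 for Hspa8 (0.025) to -6.33 ± 0.52 for Hspa1a (edgeR adjusted p = 1.2e-07). This comparison shares BALF with mexAM against BALF and BMDM with BMDM against PLF. Dnajb1 was lost without BALF of mouse 1 or 2 or any BMDM library (-0.50, adjusted p = 0.20, without BALF of mouse 2), and Hspa8 without the same libraries (-0.67, adjusted p = 0.16, without BALF of mouse 1). Both were also lost with library totals in place of TMM.

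Between the cultures, mexAM against BMDM, 4 members were called higher and none lower, where 21.5% of genes were called higher. They were Hspd1 at 1.16 ± 0.22 (edgeR adjusted p = 0.00037), Hspa8 at 0.94 ± 0.33 (0.029), Hsp90aa1 at 0.80 ± 0.26 (0.019) and Hspe1 at 0.62 ± 0.22 (0.026). Hspa1a and Hspa1b rest on 21 counts or fewer in each group there and were not called. Without BMDM of mouse 1 or of mouse 2 only Hspd1 of the 4 was called. Hspa8 was also lost without BMDM of mouse 4 or mexAM of mouse 1 or 2, and Hspe1 without mexAM of mouse 2 or 4 (adjusted p 0.062 to 0.12) and with no filter (0.0545). Hsp90ab1 was at 0.64 ± 0.26 (edgeR adjusted p = 0.050, just over the threshold). It was called by DESeq2 (0.048), with no filter (0.016), with only the compared groups (0.032), and without BALF of mouse 4, mexAM of mouse 2 or 4 or PLF of mouse 1 or 2. Bag3 was at -0.61 ± 0.26 (edgeR adjusted p = 0.064), the 1 member with a negative fold change and an unadjusted p under 0.05, and DESeq2 called 0 members lower. It was called with library totals, with no filter, and without BALF of mouse 4 or mexAM of mouse 1 (-0.84, adjusted p = 0.019), and Hspa1b was called without PLF of mouse 1 (-1.37, adjusted p = 0.048).

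In mexAM against PLF 3 members were called lower, where 29.6% of genes were: Hspa1a at -4.81 ± 0.64, Hspa1b at -5.74 ± 0.71 and Bag3 at -1.41 ± 0.25 (edgeR adjusted p at most 0.00015). Hspa8 at 0.86 ± 0.33 (adjusted p = 0.035) and Hspd1 at 0.56 ± 0.22 (0.036) were called higher, where 28.4% of genes were. Both were lost without mexAM of mouse 1 and without PLF of mouse 2 or 4 (adjusted p 0.10 to 0.15), and Hspa8 also without mexAM or BALF of mouse 2. The other 5 members had fold changes between -0.77 and 0.38 and were not called. Of these, Hsph1 was called lower with no filter (adjusted p = 0.0098) and without PLF of mouse 4 (-1.11, adjusted p = 0.018), and Hspe1 higher without mexAM of mouse 1 (0.54, adjusted p = 0.035).

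The pool cultures, sampled at passages 5 to 13, were set against the other groups with the passages of each pool added, giving 2 columns. Against mexAM 0 of 10 members were called in either direction, where 0.698% of 10602 genes were called. At an unadjusted p under 0.05 in edgeR the count was also 0, and DESeq2 called 0. The fold changes ran from -0.62 ± 0.35 for Hspa8 to 1.86 ± 0.92 for Hspa1a. With 2 pool columns and SEs of this size, the lack of calls does not show that the levels were alike.

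Against BALF the pools had 6 members called lower, where 12.4% of genes were: Hspa1a at -5.58 ± 0.54, Hspa1b at -5.89 ± 0.69, Hsph1 at -1.80 ± 0.44, Bag3 at -1.62 ± 0.27, Hsp90aa1 at -1.16 ± 0.28 and Hsp90ab1 at -0.90 ± 0.28. These are the members called in mexAM against BALF, with which the comparison shares its BALF libraries. Leaving out a pool leaves 1 column, whose spread is then assumed to be like that of the other groups. Without pool 2, Hsph1 (adjusted p = 0.087), Hsp90aa1 (0.0504) and Hsp90ab1 (0.11) were not called. The HSP90 genes were also lost without pool 1, and Hsp90ab1 without BALF of mouse 1 or 2 and with library totals (-0.70, adjusted p = 0.057).

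Against PLF the pools had 3 members called lower (Hspa1a, Hspa1b and Bag3, where 27.0% of genes were) and Hspd1 higher at 0.72 ± 0.23 (where 26.4% were). Hsph1 was at -1.04 ± 0.43 (edgeR adjusted p = 0.055, not called). It was called lower by DESeq2 (0.027), with relative log expression scaling (0.040), library totals (0.040) or no filter (0.00097), and without PLF of mouse 2 or 4. Against BMDM Hspd1 at 1.31 ± 0.23 and Hspe1 at 0.72 ± 0.22 were called higher, where 21.2% of genes were. Hspe1 was lost without either pool or BMDM of mouse 1 (adjusted p 0.051 to 0.066), Hspd1 against PLF without PLF of mouse 2 (0.057) or pool 1 (0.073), and Bag3 against PLF without pool 2 (0.12).

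Between later and earlier passages of the same pool none of the 10 was called, where 0.00950% of 10527 genes, 1 gene, was. The fold changes ran from -0.72 ± 0.52 for Hsph1 to 0.64 ± 0.33 for Bag3. At an unadjusted p under 0.05 in edgeR the count was also 0, and DESeq2 called 0. Bag3 was 37.4 then 61.6 CPM in pool 1 and 30.9 then 45.1 CPM in pool 2, the later value higher in both.

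The other chaperone lists are read against the shares of all genes in cultured against fresh, where 20.0% were called lower and 20.7% higher. In cultured against fresh, of 8 tested genes of the other HSP70 and HSP110 family 5 were called lower and 0 higher (median log2 fold change -1.28, all genes 0.01). Hspa4l, a relative of HSP110, fell from 169 to 52.6 CPM (-1.75 ± 0.16, edgeR adjusted p = 3.9e-07), Hspa5, the HSP70 of the endoplasmic reticulum, fell from 2454 to 898 CPM (-1.45 ± 0.19), and Hspa9, the mitochondrial HSP70, fell by 0.52 on the log2 scale. Of 23 tested J domain genes 7 were called lower and 3 higher (median -0.25): Dnajb4 was at -1.85 ± 0.24 and Dnaja1 at -1.0 ± 0.19, and Dnajc15, of the mitochondrial import machinery, was at 1.14 ± 0.22. The shares called in this list were not far from those of all genes. Of 10 other exchange factors and BAG genes 0 were called by edgeR or DESeq2 (median 0.09). At an unadjusted p under 0.05 there were 3: Sil1, Stub1 and Bag2.

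Of 20 HSP90 paralogs and cochaperones 5 were called lower and 3 higher (median -0.27), among them Ptges3, the cochaperone p23, at -0.99 ± 0.15 and Ppp5c, an HSP90-bound phosphatase, at 1.20 ± 0.23. Of 14 subunits of the CCT chaperonin and prefoldin, which fold actin and tubulin, 5 were called lower and 1 higher (median -0.31). Of 17 genes of mitochondrial proteostasis 2 were called lower and 3 higher (median 0.10), with Lonp1, a matrix protease, at 0.72 ± 0.17. For the HSP90 list the shares called lay near those of all genes, and the mitochondrial list was not above them in either direction. Of 21 other heat inducible genes 10 were called lower and 1 higher (median -0.37), led by Sqstm1, the autophagy receptor p62, at -1.92 ± 0.17. Hspb1, the small heat shock protein HSP25, did not pass the low-count filter and stood at 6.05 CPM in fresh and 0.0981 CPM in cultured libraries.

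The factor's own gene, Hsf1, was at 14.3 CPM in fresh and 9.09 CPM in cultured libraries (-0.60 ± 0.27, edgeR adjusted p = 0.091, not called), and its relative Hsf2 was called lower at -0.50 ± 0.19 (0.043). For the pairs apart, other heat inducible genes had 9 called lower and 1 higher of 21 in mexAM against BALF. There 14.8% of all genes were called lower and 15.2% higher. In BMDM against PLF 7 were lower and 4 higher, where 18.0% of all genes were called lower and 18.4% higher. In BALF against PLF 9 were called higher and 2 lower, where 19.5% of all genes were called higher and 20.8% lower.

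**Figure D5:**
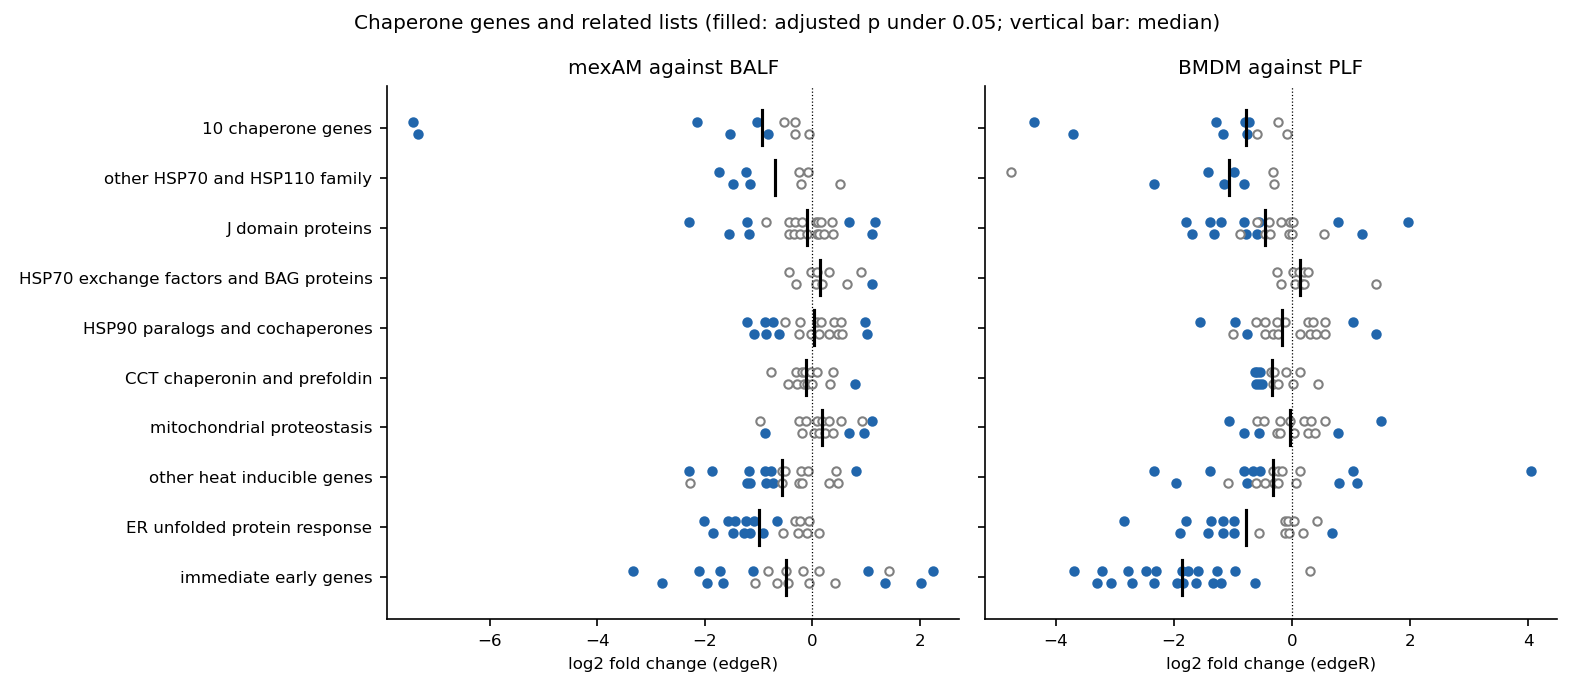
Log2 fold change (edgeR) of the 10 chaperone genes and of the tested genes of 9 related lists in mexAM against BALF (left) and BMDM against PLF (right). Points are genes, filled where the adjusted p is under 0.05, and bars are medians; the 10 chaperone genes have medians of -0.93 and -0.78.

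Other stress-linked lists moved in the same comparisons, and their part in the chaperone values was not tested. Of 21 immediate early genes 15 were called lower in culture and 0 higher (median -1.10), where 20.0% of all genes were called lower. In mexAM against BALF 7 were lower and 4 higher, where 14.8% of all genes were called lower and 15.2% higher. In BMDM against PLF 20 were lower and 0 higher, where 18.0% of all genes were called lower and 18.4% higher. Of 18 genes of the endoplasmic reticulum's unfolded protein response 12 were called lower and 0 higher (median -0.78), with Manf at -1.59 ± 0.18. Of 24 cell cycle genes 13 were called higher in culture and 0 lower (median 0.87), where 20.7% of all genes were called higher. By pair, 16 were called higher and 1 lower in mexAM against BALF (median 1.49), and 2 higher and 0 lower in BMDM against PLF (median 0.49). The 8 neutrophil markers summed to 1907 to 4971 CPM in BMDM and 338 to 793 CPM in mexAM. The fresh libraries had sums of 50.8 to 154 CPM. Of these markers Cxcr2 (243 against 10.3 CPM) and S100a8 (279 against 52.6 CPM) were called higher in mexAM than in BALF. Ly6g had no count in mexAM. The 10 lung epithelium markers summed to 69.2 to 111 CPM in BALF and 51.1 to 114 CPM in mexAM, but the sums differed in make-up. In mexAM 7 of the 10 had no count, against 1 in BALF, and Cdh1 alone gave 73.3 CPM of the mean sum of 74.9 CPM. Of the 2 tested, Epcam was lower in mexAM (0.162 against 40.2 CPM) and Cdh1 higher (73.3 against 34.4 CPM, edgeR adjusted p = 0.045).

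Across the 16 libraries the members fell into loose patterns, given as a description since libraries share mice, groups and scaling. Pearson's r of log2 CPM was 0.93 between Hspa1a and Hspa1b, 0.92 between Hspa1a and Bag3, 0.90 between Hsph1 and Hsp90aa1, and 0.91 between Hsph1 and Hsp90ab1. It was 0.69 between Hspd1 and Hspe1, which share a promoter region, 0.22 between Hspa1a and Hspa8, and 0.04 between Bag3 and Hspa8. A mean of at least 10 CPM in 1 or more groups was reached by 9396 genes, members included. Among these, with members and predicted genes (Gm and Rik symbols) passed over, those most like Hspa1a were Erc2 (0.95), Hmox1 (0.95), Patj (0.93), Acbd3 (0.93) and Txnrd1 (0.93). Hmox1 stood at 10849 CPM in BALF, 2186 in PLF, 354 in BMDM and 278 in mexAM. Those most like Hspd1 were Myh9 (0.95), Lonrf1 (0.95), Ptpn12 (0.94), Cpne8 (0.94) and Iqgap1 (0.93), with Myh9 at 948, 455, 281 and 853 CPM in the same groups.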

How the data were processed

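The deposited files hold 1 column of read counts per gene for each of the 16 libraries, made by the authors, with 47643 gene identifiers. Per the labels' protocols, total RNA was taken with the RNeasy Micro kit and libraries with the QuantSeq 3' FWD kit and its UMI second strand module, read as 65 bases single end. Genome build GRCm38 (mm10) is named per the submitters' processing notes. Not given in the sources used here are the aligner, counter, annotation release, strand setting and any collapsing of UMIs. The exact intervals for ratios of summed counts cover counting error only, with each count taken as independent. If UMIs were not collapsed, counts are not independent molecules, and these intervals would be too narrow.

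Identifiers were given symbols and positions with GENCODE M21. Counts outside genes were left out of library sizes. Counts were fitted in edgeR 4.0.16 (R 4.3.3; filterByExpr, TMM, glmQLFit and glmQLFTest) on the 12 mouse libraries (10011 genes), on 14 columns with the passages of a pool added (10602 genes), and on all 16 libraries for passages (10527 genes). Benjamini-Hochberg adjustment covered every gene in a fit. CPM use TMM totals, and log2 CPM a prior count of 2. Ratios were compared by exact permutation tests (SciPy 1.17.1). The scripts were tested on simulated counts.

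Same-numbered libraries come from the same mouse per the labels, so mouse numbers pair the samples. Over 18 pairs of same-mouse libraries the correlation of deviations from group means ran from -0.12 to 0.22 (median -0.02). Replicate libraries differed by more than counting noise. Alternatives were DESeq2 1.42.0, other scalings and filters, mouse as a block, Gm42418 and mitochondrial genes left out, only the compared groups in a fit, BALF of mouse 1 alone, the HSP70 paralogs summed, and each library left out in turn.

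The 10 genes and the lists of related genes and markers were chosen with earlier results of these data known. All 10 members are named. From each list the text names up to 4 called genes with the largest change at 10 CPM or more, and the 5 genes most like Hspa1a and Hspd1. Hsf1, Hspa9, Hspb1, Sil1, Stub1, Bag2, Ly6g, Epcam, Cdh1 and the genes described for the PLF library of mouse 1 were named after their values were seen.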

Additional observations from a re-analysis of the deposited data

Results flagged for a closer look

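The change in culture was called different between the 2 pairs of groups for Hspa1a and for Bag3. The log2 fold change of mexAM against BALF less that of BMDM against PLF was -3.72 for Hspa1a (edgeR adjusted p = 0.023). That call was lost when any 1 BMDM library was left out (edgeR adjusted p 0.0501 to 0.066). Hspa1a rests on 5 counts in mexAM and 10 in BMDM. These cultures were not called different (-1.10 ± 0.98), while BALF against PLF was at 2.62 ± 0.38. Hspa1a was lower in culture in 3 of 3 mice in both pairs, by -5.35, -6.81 and -6.64 from BALF to mexAM and by -3.87, -2.00 and -2.83 from PLF to BMDM in mice 1, 2 and 4 (log2 CPM with a prior count of 2). For Bag3 the difference was -1.35 (edgeR adjusted p = 0.010), and Bag3 too was lower in culture in 3 of 3 mice in both pairs.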

How the results depend on the processing

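Hspa1a, Hspa1b, Bag3, Hsph1, Hsp90aa1, Hsp90ab1 and Dnajb1 stayed called lower in cultured against fresh under every setting run, and the count there was 7 or 8 of 10. With mouse as a replicate block the counts of called members were the same in each comparison of BALF, PLF, BMDM and mexAM. In the difference of the culture contrasts Hspa1b was gained (-3.06). For passages, fitted on the pool libraries alone with the pool as the block, the counts were 0 as well. Pools carry no mouse number, so the pool comparisons have no such fit.

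Hspa8 had no stable sign. In cultured against fresh it was 0.056 with library totals, 0.013 with the replicate block, 0.09 without BALF replicate 1 and 0.19 without PLF replicate 1, and ran from -0.22 to 0.19 over the libraries left out. In mexAM against BALF it was 0.13 with library totals, 0.26 without BALF replicate 1 and 0.011 without mexAM replicate 4 (-0.35 to 0.26 over the libraries left out). In BMDM against PLF it was 0.027 with the replicate block and 0.45 without PLF replicate 1 (-0.31 to 0.45). The log2 ratio of Hsp90aa1 to Hsp90ab1 in mexAM against BALF ran from -0.27 to 0.020 when a library was left out, with 0.020 without mexAM replicate 1. In cultured against fresh it ran from -0.38 to -0.26. The adjusted exact permutation p there was 0.035 without BALF replicate 4 and 0.026 without mexAM replicate 4. Both passed, while the adjusted p with all libraries kept (0.078) did not. The cause was not tested in any of these.

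Counts of called members moved where a library was left out, which also leaves fewer samples: BALF against PLF, 3 to 8 higher (main 8), BMDM against PLF, 3 to 8 lower (main 7), the difference of the culture contrasts, 1 to 4 lower (main 2), mexAM against BMDM, 1 to 5 higher (main 4) and 0 to 1 lower (main 0), mexAM against PLF, 0 to 2 higher (main 2), pools against BALF, 3 to 8 lower (main 6), pools against BMDM, 1 to 4 higher (main 2), and pools against PLF, 0 to 2 higher (main 1). Other settings moved some too. BALF against PLF had 3 higher with library totals, 9 with no filter and 5 with only the compared groups in the fit. MexAM against BMDM had 1 lower with library totals and 1 with no filter. MexAM against PLF had 1 higher with DESeq2, 1 with relative log expression scaling and 0 with only the compared groups. Pools against BMDM had 4 higher with no filter.

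Library totals in place of TMM moved the median of all genes to 0.22 in mexAM against BALF, 0.13 in cultured against fresh, 0.32 in BMDM against BALF, 0.20 in pools against BALF and 0.17 in the difference. The share of calls that were higher was then 67.4% against 50.6% in mexAM against BALF, 62.8% against 50.8% in cultured against fresh, 33.1% against 48.4% in BALF against PLF, 69.5% against 51.5% in BMDM against BALF, 67.7% against 52.4% in pools against BALF and 55.9% against 44.5% in the difference. Depth limits Hspa1a and Hspa1b in culture, where a library holds 0 to 10 counts of either.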
